A study of Trichechus manatus latirostris with 11 samples.

Results

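The genes described here are 40 genes of B cell identity and of antigen presentation, measured by RNA-seq in the buffy coat, the layer of white blood cells of spun blood, of Florida manatees, Trichechus manatus latirostris. They comprised 27 genes of B cell identity and 13 genes of antigen presentation, and were found by matching the RefSeq transcript records of the deposited table to the gene symbols of the TriManLat1.0 assembly. Of the 40 genes, 23 had a record, in 24 of the 15298 rows of the table, because PRDM1 had 2 records. Only 10080 of the rows carried a symbol, so a gene without a row under its symbol may lie among the others. The red tide group comprised 4 adult manatees treated at Lowry Park Zoo for illness from a bloom of toxic algae. The paper states that 2 of them were sampled on arrival and 2 after a week of treatment. The control group comprised 7 adult manatees, of which 2 came from the Indian River Lagoon, 4 from Crystal River, and 1 was a patient of Lowry Park Zoo that was recovering from pneumonia. All were wild animals sampled as occasion allowed, and in each group 1 was female and the others male. Date of sampling cannot be told apart from the group. Place cannot either, since the library of the only control from Lowry Park Zoo cannot be identified. Nor can storage, since the methods describe freezing for the red tide buffy coats besides RNAlater for every animal.

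B cells recognise antigen with a membrane-bound antibody, the B cell receptor, whose signal passes through coreceptors, adaptors and kinases such as BTK and BLNK. A set of transcription factors, EBF1 and PAX5 among them, establishes and keeps the B cell programme, and IRF4 and PRDM1 (BLIMP-1) drive its replacement by that of the antibody-secreting plasma cell. Survival of mature B cells depends on the cytokine BAFF. Antigen presentation displays peptides on MHC class I molecules, which nearly all cells carry and which are loaded by the TAP transporter, and on MHC class II molecules, which B cells, monocytes and dendritic cells carry and whose transcription is switched on by CIITA.

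The values are mean normalized counts, that is, reads counted per gene sequence and divided by the size factor of the library, a number that stands for its relative depth. The table gives 1 mean over 4 libraries and 1 over 7 libraries and does not name the groups. By its number of libraries the first mean belongs to the red tide group and the second to the control group. The study's text, however, reads the table's ratio of the second mean over the first as red tide over control. This was not resolved, so the means are named here by their number of libraries, and no direction below is to be read as an effect of red tide. The overall mean equalled the 2 means weighted by 4 and 7 in all 15298 rows, with a largest relative deviation of 3.34e-09. The table has no value of a single library, but a low mean can be resolved into whole reads, because 1 read adds the reciprocal of its library's size factor. In this way, size factors of 1.56, 1.03, 0.620 and 0.372 were obtained in the 4-library group and of 0.702 to 1.73 in the 7-library group. Where a single combination of whole reads gave the deposited mean, it was taken as the reads of the libraries, which held for 10251 of 11035 rows whose 4-library mean was at most 150. For the 7 libraries it held for 4553 of 5439 rows whose mean was at most 10. Libraries are given in the order of falling size factor, and none of them can be linked to an animal. Counts were not scaled to gene length, so levels are compared between groups and not between genes.

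Most of the genes with a record had similar means in both groups, and the differences that were present lay mostly on the side of a lower 4-library mean. Of the 24 records, 17 had the lower and 7 the higher value in the 4-library mean. The median of their log2 ratios, always given with the 4 libraries as numerator, was -0.33. The median over all 15298 rows was 0.14, and over the 10225 rows with an overall mean of at least 10 it was -0.01. At least a 2-fold lower 4-library mean was found for 3 member records (CD22, POU2F2 and TNFSF13B), where 10.4% of all rows passed this mark. A 2-fold higher 4-library mean was found for 0 member records, where 23.9% of all rows passed. Among the 20 member records with an overall mean of at least 10, the counts were 2 lower and 0 higher, beside 9.59% and 12.3% of such rows. The share of members that were 2-fold lower was therefore near that of the table as a whole. Group means carry no error, so the 2-fold mark is a rule of size and not a test. Fewer cells of a type and less RNA per cell cannot be told apart in such a mixture.

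**Figure D1:**
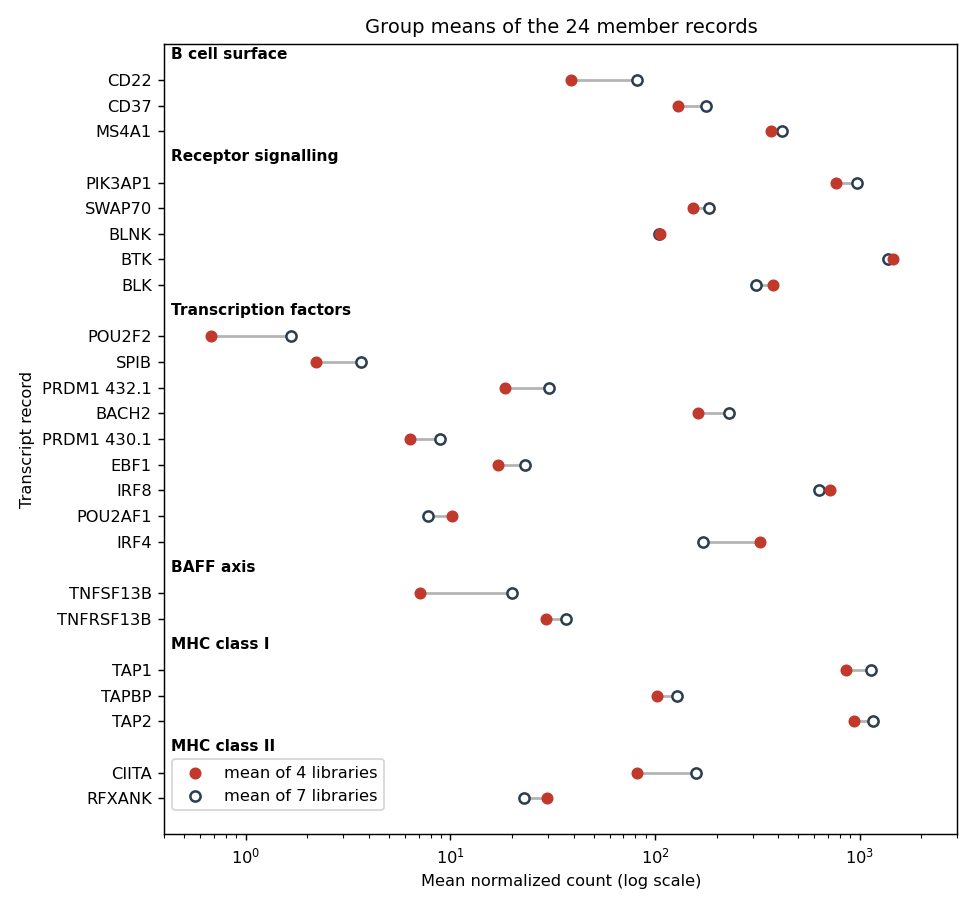
Mean normalized count (horizontal axis, log scale) of each of the 24 member records, filled points for the mean of 4 libraries and open points for the mean of 7 libraries, grouped by role. The pairs of CD22, POU2F2 and TNFSF13B lie at least 2-fold apart with the 4-library mean lower, IRF4 has the widest gap in the other direction, and the points of BLNK coincide.

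All 3 surface genes of B cells that had a record were lower in the 4-library mean. MS4A1 encodes CD20, the surface protein by which mature B cells are commonly recognised, and its mean was 370 in the 4 libraries and 415 in the 7 libraries, a log2 ratio of -0.17. CD22 encodes a lectin that restrains signalling from the B cell receptor. Its normalized counts in the 4 libraries were 32.1, 25.3, 17.7 and 80.7, from 117 reads in all, against a 7-library mean of 81.6. The library with the smallest size factor thus lay just under the 7-library mean, and the others far under it. The 4-library mean of CD22 was 39.0 ± 28.4 (SD, n = 4), 2.09-fold lower than the 7-library mean, with a log2 ratio of -1.07. This ratio ran from -1.70 to -0.83 when 1 of the 4 libraries was left out, and it fell inside the 2-fold mark without any one of the libraries of size factor 1.56, 1.03 or 0.620. CD37, a tetraspanin of mature B cells, was more even, at 163, 138, 102 and 113 in the 4 libraries. All of these lay below its 7-library mean of 177, and the log2 ratio was -0.46. CD79A and CD79B, the signalling chains of the receptor, and CD72, CR2, FCER2 and FCRLA had no row under their symbols.

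The genes that carry the receptor's signal differed least between the means. BLNK, the adaptor that links the kinase SYK to its targets, had means of 105.1 in the 4 libraries and 104.9 in the 7 libraries, a log2 ratio of 0.00. BTK, the kinase that B cell development in humans depends on, had 1450 and 1379 with a log2 ratio of 0.07. For the SRC-family kinase BLK the means were 376 and 311, a log2 ratio of 0.27. These 3 genes therefore did not share the lower 4-library means of the surface genes, though the contrast is small for MS4A1, with its log2 ratio of -0.17. PIK3AP1 (BCAP), which couples the receptor to phosphoinositide 3-kinase, had means of 768 and 971 and a log2 ratio of -0.34. SWAP70, a protein of activated B cells that acts on the actin skeleton, had 153 and 182 and a log2 ratio of -0.26. The 5 genes had a median log2 ratio of 0.00 and summed means of 2852 in the 4 libraries and 2950 in the 7 libraries. Reads of single libraries could not be recovered for them, since their 4-library means were too high or allowed more than 1 combination. BANK1 had no row under its symbol.

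The transcription factors fell on both sides. IRF4 had the highest log2 ratio of all members at 0.91, with means of 324 in the 4 libraries and 172 in the 7 libraries, a 1.88-fold difference that stayed inside the 2-fold mark. IRF4 acts in activated B cells and plasma cells and also in T cells and dendritic cells. IRF8, which serves B cells, monocytes and dendritic cells, had means of 715 and 629 and a log2 ratio of 0.18. POU2AF1 (OBF-1), a coactivator of octamer-binding factors in B cells, had a 4-library mean of 10.2 and a 7-library mean of 7.73, with single libraries at 8.34, 9.74, 6.45 and 16.1. One of its 4 libraries lay below the 7-library mean and the others above, so these values straddled it.

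Lower 4-library means were found for EBF1, BACH2 and PRDM1, and for SPIB and POU2F2, which are described further below. EBF1, a factor without which B cells do not form, had normalized counts of 16.0, 11.7, 8.06 and 32.3 in the 4 libraries and a 7-library mean of 23.1, a log2 ratio of -0.44. Its library of smallest size factor lay above the 7-library mean and the other three below. BACH2, a repressor that delays the passage of B cells to plasma cells, had means of 162 and 231, a log2 ratio of -0.51. PRDM1, which carries out that passage, had 2 records, and since the authors kept uniquely mapped reads, reads common to both records may be missing from either. Its record XM_004372432.1 had 10.9, 10.7, 25.8 and 26.9 in the 4 libraries against a 7-library mean of 30.3, and its record XM_004372430.1 had 5.77, 7.79, 6.45 and 5.38 against 8.90. In both records all 4 libraries lay below the 7-library mean, with log2 ratios of -0.71 and -0.49. The 9 records of the transcription factors had a median log2 ratio of -0.49, with 6 lower and 3 higher.

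SPIB and POU2F2 (OCT-2) were the members with reads recovered in all 11 libraries, and both were at the lower limit of detection. SPIB, an ETS factor of B cells and plasmacytoid dendritic cells, had 4.49, 0, 1.61 and 2.69 in the 4 libraries, from 9 reads. In the 7 libraries it had 3.47, 0, 6.71, 5.97, 3.61, 4.53 and 1.42. Each group held a library with no read, the ranges overlapped, and the means were 2.20 ± 1.89 (SD, n = 4) and 3.67 ± 2.37 (SD, n = 7). POU2F2 had 1 read among the 4 libraries, worth 2.69 in the library of smallest size factor, and 0 in the others. Of the 7 libraries 4 had no read, and the others had 0.904, 3.62 and 7.12. The ratio of the means gave a log2 value of -1.31, or -0.89, inside the 2-fold mark, when a library without a read was left out of the 4. As reads per summed size factor, 1 read against 10 gave a ratio of 0.239 with an exact 95% interval of 0.00550 to 1.68, which covers counting error only and includes equality. In an exact two-sided permutation test over all 330 ways to draw 4 of the 11 libraries, SPIB had p = 0.321 (0.657 after Benjamini-Hochberg adjustment over the 4538 rows so tested) and POU2F2 p = 0.636 (0.895 adjusted). Neither differed beyond the spread between libraries. The smallest p this design allows is 0.00606. An adjusted p under 0.05 over 4538 rows would have needed many rows at or near that value, so the adjusted values decide little. Of the 4538 rows, 15.1% had an unadjusted p under 0.05 and 0 had an adjusted p under 0.05, and the limits on the means (150 for the 4 and 10 for the 7 libraries) favour rows that are higher in the 4.

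The BAFF axis held the lowest ratio among the members. TNFSF13B encodes BAFF, a cytokine that is made mostly by myeloid cells and received by B cells. Its normalized counts in the 4 libraries were 10.3, 12.7, 0 and 5.38, from 31 reads, against a 7-library mean of 20.1. All 4 libraries were below that mean, and the 4-library mean of 7.07 ± 5.60 (SD, n = 4) was 2.84-fold lower. The log2 ratio of -1.50 ran from -1.94 to -1.09 when 1 of the 4 libraries was left out, so no single library of the 4 carried it. Whether 1 of the 7 libraries did is not known, since their reads were not recovered for this gene. TNFRSF13B encodes TACI, a receptor for BAFF and APRIL on B cells. Its normalized counts in the 4 libraries were 46.2, 17.5, 4.84 and 48.4, 2 of them above and 2 below the 7-library mean of 36.8. The log2 ratio of TNFRSF13B was -0.33, and it ranged from -0.69 to 0.02 on leaving out 1 library, so its sign rested on the library of size factor 0.620. TNFRSF13C and TNFRSF17, the receptors BAFF-R and BCMA, had no row under their symbols.

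The class I genes of antigen presentation were each somewhat lower in the 4-library mean and none was near the 2-fold mark. TAP1 and TAP2 form the transporter that carries peptides into the endoplasmic reticulum. TAP1 had means of 855 in the 4 libraries and 1136 in the 7 libraries, and TAP2 had 941 and 1163, log2 ratios of -0.41 and -0.30. TAPBP (tapasin), which bridges the transporter to the MHC class I molecule, had means of 102 and 128 and a log2 ratio of -0.33. The 3 genes thus had closely similar ratios. B2M, the light chain of class I molecules, TAPBPL and ERAP1 had no row under their symbols.

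CIITA, the coactivator on which transcription of MHC class II genes depends, was the lowest of the antigen presentation genes. Its normalized counts in the 4 libraries were 80.2, 54.5, 59.6 and 132, from 267 reads, and its 7-library mean was 158. All 4 libraries lay below this mean, and the 4-library mean was 81.5 ± 35.3 (SD, n = 4), 1.94-fold lower. The log2 ratio of -0.96 ran from -1.29 to -0.80 on leaving out 1 library, and passed the 2-fold mark without the library of size factor 0.372. RFXANK, a subunit of the RFX complex that binds the promoters of class II genes together with CIITA, did not follow it. Its values were 52.6, 21.4, 17.7 and 26.9, with 2 libraries on each side of the 7-library mean of 22.8. Its log2 ratio of 0.38 turned to -0.05 without the library of size factor 1.56. The other subunits RFX5 and RFXAP, the invariant chain CD74, the protease CTSS and the lipid-presenting CD1D had no row under their symbols.

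**Figure D2:**
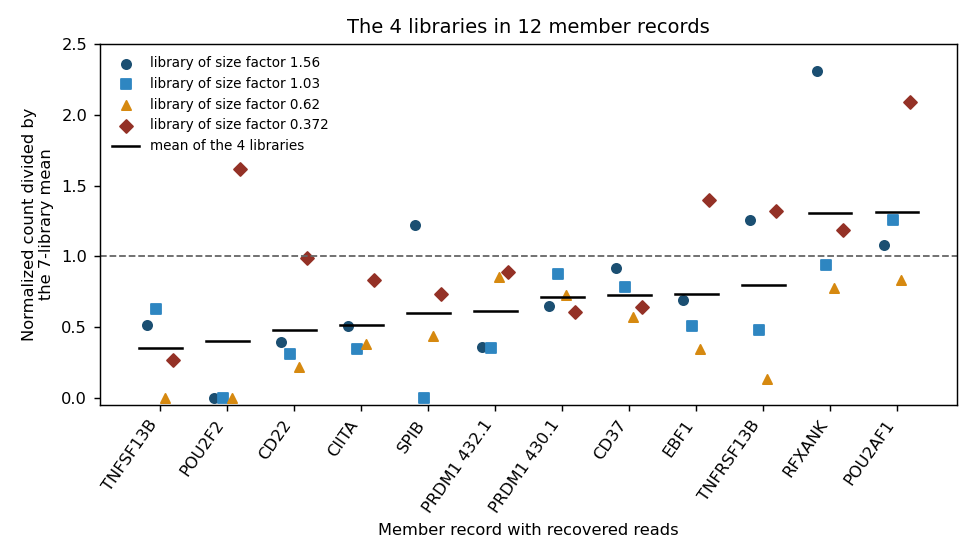
Normalized count of each of the 4 libraries divided by the 7-library mean of the same record (vertical axis), for the 12 member records whose reads were recovered, with the mean of the 4 as a bar and the dashed line at a ratio of 1. In 6 records (CD22, CD37, both PRDM1 records, TNFSF13B and CIITA) all 4 points lie below the line, and the library of size factor 0.372 is often the highest of the 4.

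The 4 libraries differed among themselves, and certain libraries often held the highest or the lowest value in the B cell member records. Which of them came from animals sampled on arrival or after a week of treatment is not known. Single libraries of the group of 4 were known for 12 member records, 10 of B cell identity and 2 of antigen presentation. Those of the group of 7 were known only for SPIB and POU2F2, so for the rest the spread around the 7-library mean is not known. All 4 libraries lay below the 7-library mean in 6 of the 12 records and above it in 0. Among all 10251 recovered rows the corresponding shares were 17.9% and 10.8%, and among the 5178 of them with an overall mean of at least 10 the share with all 4 below was 27.2%. The library of size factor 0.372 had the highest value in 6 of the 10 B cell records, and the library of size factor 0.620 had the lowest in 6. In all recovered rows with an overall mean of at least 10, these libraries were the highest and the lowest in 32.9% and 24.7%, and in all 10251 recovered rows in 34.3% and 16.7%. Both held together in 4 of the 10 records, beside 9.48% of recovered rows with an overall mean of at least 10. Of the 10 B cell records, 4 had an overall mean under 10, and POU2F2 counts among the 6 with a single read. Other B cell genes, described below, did not all share the pattern. The library of size factor 0.372 was the highest for PAX5 and FCMR but the lowest for MZB1. That of size factor 0.620 was the lowest for SPI1 but the highest for BCL6 and RAG1. This description was made after the values had been seen, and the library of smallest size factor is also the one in which a single read is worth most. Over 5594 rows with a 4-library mean of 10 to 150, the coefficient of variation among the 4 libraries had a median of 49.2%. Leaving out 1 library shifted the log2 mean by up to 0.32 (median over these rows). The median log2 ratio of the members, -0.33, was of that size, while those of CIITA, CD22 and TNFSF13B exceeded it.

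B cell identity and antigen presentation genes had similar median log2 ratios, though the second median rested on 5 records from 13 listed genes. The median log2 ratio was -0.34 over the 19 B cell records and -0.33 over the 5 antigen presentation records. The B cell records ranged more widely, from -1.50 to 0.91, with 13 lower and 6 higher. The antigen presentation records ranged from -0.96 to 0.38, with 4 lower and 1 higher. Within 2-fold lay 16 of the 19 and 5 of the 5, beside 65.7% of all rows. Within 1.5-fold lay 13 of the 19 and 4 of the 5, a mark for which the share of all rows was not determined. The summed means were 4682 in the 4 libraries and 4788 in the 7 libraries for B cell identity, and 2009 and 2607 for antigen presentation. The B cell sums were close because IRF4, IRF8, BTK and BLK, higher in the 4-library mean, offset the lower genes.

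**Figure D3:**
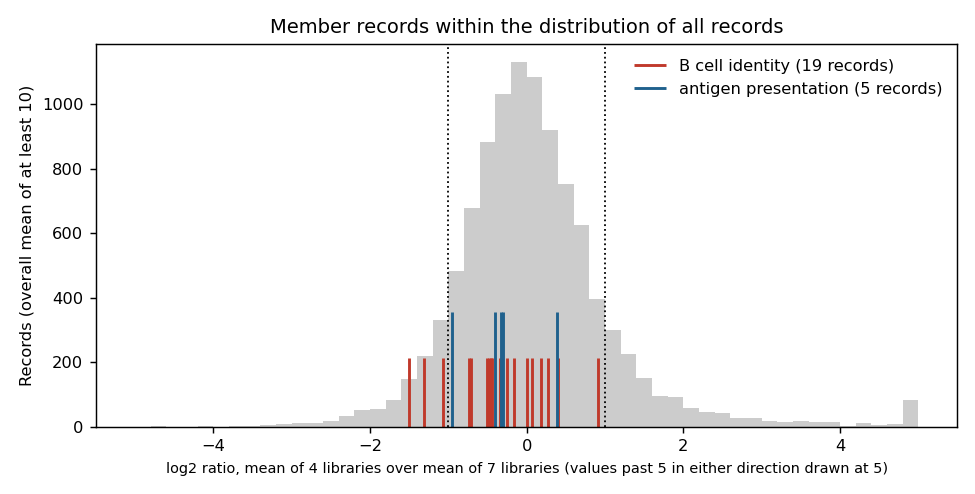
Distribution of the log2 ratio of the means, 4 libraries over 7 (horizontal axis), for the 10225 rows with an overall mean of at least 10 (grey, number of rows on the vertical axis), with all 24 member records as coloured ticks and the 2-fold marks as dotted lines. The 5 antigen presentation records and all but 3 of the 19 B cell records lie between the marks, as do 78.1% of the grey rows.

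Other genes of B cells, taken from a list of 75 of which 44 had a record, ranged from -2.83 to 2.97 on the log2 scale. Of their 49 records, 8 were at least 2-fold lower and 7 at least 2-fold higher in the 4-library mean, and 34 lay within 2-fold. These counts stand beside 10.4% lower and 23.9% higher among all rows, so the list as a whole was not set apart from the table. The median of its log2 ratios was -0.08. The lowest ratio was that of BCL6, the repressor that directs germinal centre B cells, at 3.21, 0, 14.5 and 2.69 in the 4 libraries against a 7-library mean of 36.2. All 4 libraries were below that mean, and the log2 ratio was -2.83. FCMR, the receptor for the constant part of IgM, had 34.0, 3.89, 14.5 and 51.1 against 137, a log2 ratio of -2.40. SPI1 (PU.1), a factor of myeloid cells and of early B cells, had 53.9, 36.0, 32.2 and 43.0 against 119, a log2 ratio of -1.53. In these 3 genes no library of the 4 reached the 7-library mean. PAX5, the factor that maintains B cell identity, is named here with its values known, and had 23.1, 10.7, 22.6 and 40.4 against 44.5, a log2 ratio of -0.88 that lay inside the 2-fold mark.

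In the other direction stood the recombinase genes. RAG1 and RAG2 cut the antigen receptor genes of developing lymphocytes in bone marrow and thymus. RAG1 had 14.8, 4.87, 85.4 and 78.0 in the 4 libraries against a 7-library mean of 5.84, a log2 ratio of 2.97. The libraries of size factor 0.620 and 0.372 were high and the library of size factor 1.03 lay below the 7-library mean. RAG2, named after its values had been seen, was likewise highest in these libraries, at 1.92, 1.95, 48.4 and 16.1 in the 4 libraries and at 0, 0, 11.7, 0, 7.23, 0 and 4.27 in the 7 libraries. The ranges overlapped, and the exact permutation test gave p = 0.152 (0.505 adjusted over the 4538 rows). NIBAN3, a gene expressed in B cells, had 52.0, 9.74, 21.0 and 26.9 against 8.70, all 4 libraries above, and a log2 ratio of 1.65. CD40, the receptor through which T cells help B cells, had means of 149 in the 4 libraries and 66.3 in the 7 libraries, a log2 ratio of 1.17.

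Of 54 further genes of antigen presentation, 28 had a record, and of their 29 records 2 were at least 2-fold lower and 3 at least 2-fold higher in the 4-library mean. Their median was -0.18 on the log2 scale, and the shares among all rows were again 10.4% and 23.9%. ERAP2, an aminopeptidase that trims class I peptides, had 37.2, 12.7, 54.8 and 21.5 against a 7-library mean of 73.2, a log2 ratio of -1.21 with all 4 libraries below. CREB1, part of the complex at class II promoters, had a record with a log2 ratio of -0.98 and another with -0.49. PSAP, a lysosomal protein that aids lipid loading, had -0.95, and all of these lay inside the 2-fold mark. The subunits of the immunoproteasome, the form of the proteasome that prepares class I peptides, were singled out after their values had been seen. PSMB8, PSMB9 and PSMB10 had log2 ratios of -0.78, -0.37 and -0.18, the same direction as TAP1, TAP2 and TAPBP.

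The 3 highest ratios of this list were those of HSPA5, THOP1 and IRF1. HSPA5 (BiP), the chaperone of the endoplasmic reticulum and a marker of its stress, had means of 11101 in the 4 libraries and 2374 in the 7 libraries, a log2 ratio of 2.23. THOP1, a peptidase of the cytosol that destroys class I peptides, had 38.5, 47.7, 75.8 and 75.3 against 20.4, all 4 libraries above, and a log2 ratio of 1.54. IRF1, an interferon-response factor that acts on class I and TAP1 promoters, had means of 4085 and 1722, a log2 ratio of 1.25. In these libraries the means of IRF1 and TAP1 thus lay on opposite sides.

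Neutrophil and platelet markers had medians further from 0 than the B cell genes, and T cell and monocyte markers did not. Of 11 records of neutrophil markers, 9 were at least 2-fold lower in the 4-library mean. Their median log2 ratio was -2.36, with summed means of 3597 in the 4 libraries and 15258 in the 7 libraries. Of 6 records of platelet markers, 5 were at least 2-fold higher, with a median of 1.74 and sums of 15280 and 4429. The 12 records of T cell markers had a median of 0.28, with 2 at least 2-fold lower and 1 higher. The 9 of monocyte markers had a median of -0.14, with 2 lower and 3 higher. Among all rows, 10.4% were at least 2-fold lower and 23.9% at least 2-fold higher. Which of the means is that of the red tide animals is as uncertain for these lists as for the members. No marker record was at 0 in either mean. Normalized counts are relative, since each library was scaled by 1 size factor. The part of these cell types in the ratios of the B cell and antigen presentation genes was not tested.

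**Figure D4:**
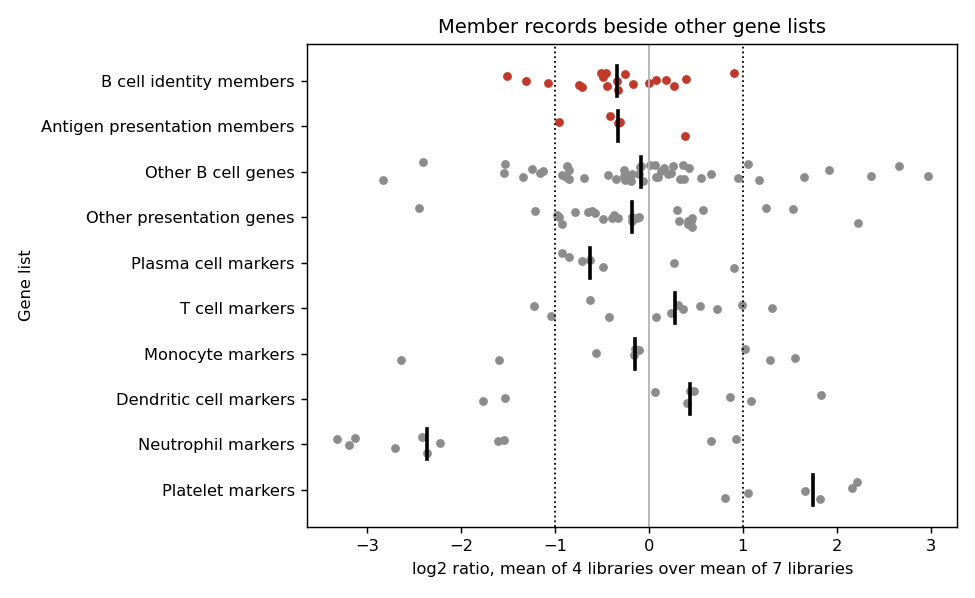
Log2 ratio of the means, 4 libraries over 7 (horizontal axis), for each record (point) of the members, of the other genes of B cells and antigen presentation and of markers of other blood cells (rows), with the median of each list as a bar, a grey line at 0 and dotted lines at the 2-fold marks; vertical jitter has no meaning. The medians of both member lists lie near -0.33, those of neutrophil and platelet markers at -2.36 and 1.74.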

How the data were processed

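RNA from buffy coats of 11 manatees (4 red tide, 7 control) was depleted of ribosomal and globin RNA and sequenced. Per the sample labels and the study's methods, the authors cleaned the reads with Cutadapt, used Bowtie2 to align them to TriManLat1.0, discarded duplicates and reads without a unique position, counted the rest for each gene and ran DESeq within DEB. Which annotation release was used is not given in the sources used here. As deposited, the values are a signal, the authors' mean of size-factor-normalized counts, for all 11 libraries together and for either group. Its fold change, log2 fold change, p-value and adjusted p-value columns hold the authors' comparison and were not used.

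Ratios of the group means were taken with no pseudocount, and a ratio of at least 2-fold was counted, since no column of a single sample exists and no test of the means is possible. Whole reads of single libraries were recovered in Python 3.11.15 with numpy 2.4.6 by searching for combinations that gave the deposited mean to its last decimal, for 4-library means of up to 150 and 7-library means of up to 10. The procedure was tested on simulated data, and the limits were chosen after the values had been seen. Total counts per library are not known, and size factors (0.372 to 1.73) stand for relative depth. Where all 11 libraries were recovered, an exact two-sided permutation test (scipy 1.17.1 for the interval of POU2F2) was run over 330 arrangements, with Benjamini-Hochberg adjustment over all 4538 rows. Since nothing links samples beyond their labels, p-values measure the spread between these 11 samples.

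The members and gene lists were chosen with earlier results of these data known. All members with a record were described. From the lists of other genes, the 3 records with the highest and the 3 with the lowest log2 ratio at an overall mean of at least 10 were named, and others are marked as chosen later. Of the 15298 rows, 10080 carried a symbol. Sequences and coordinates are not analysed here. Alternatives were other fold marks, a pseudocount of 1, a minimum overall mean of 10, centring, 1 record per gene, and leaving out single libraries.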

Additional observations from a re-analysis of the deposited data

Results flagged for a closer look

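Of 14 groups of 4 or 7 libraries examined among the members, 1 held a library that stood apart by Dixon's criterion at the 95% level. For POU2F2 (OCT-2), the library of size factor 0.372 had a normalized count of 2.69 and the other three of the 4-library group had 0. The value is that of 1 read in the shallowest library. For continuous values chance alone marks about 1 in 20 such groups, but a record with 1 read among 4 libraries is always marked, so this says nothing beyond the single read.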

How the results depend on the processing

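The 2-fold mark decided most counts. Shares of all rows at 1.5-fold and 3-fold were not determined, so the counts at these marks have no background. With a mark of 1.5-fold, the B cell identity records were 5 lower and 1 higher in the 4-library mean in place of 3 and 0, and the antigen presentation records 1 lower in place of 0. With a mark of 3-fold, 0 B cell identity records were lower. For the other B cell genes, 14 records were lower at 1.5-fold and 2 at 3-fold in place of 8, and 4 were higher in place of 7 when an overall mean of at least 10 was required. For the other antigen presentation genes, 8 records were lower at 1.5-fold, 1 at 3-fold and 1 with an overall mean of at least 10 in place of 2, and 1 was higher at 3-fold in place of 3. When single libraries of the group of 4 were left out, 1 to 3 B cell identity records were lower, TNFSF13B alone without the library of size factor 1.03 or that of 0.620, and 0 to 1 antigen presentation records, with 1 reached without the library of size factor 0.372. With deeper libraries counting more (summed reads over summed size factors), 5 recovered members were lower in place of 3. POU2F2 went to a log2 ratio of -2.57 by summed reads and, inside the 2-fold mark, to -0.67 with a pseudocount of 1. CIITA passed the mark by the median of the 4 libraries (-1.18) and by summed reads (-1.08). RFXANK and TNFRSF13B changed sign when 1 library was left out, to -0.05 and 0.02. The medians of the 4 lists stayed below 0 throughout.

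In the exact permutation test 0 of 4538 rows had an adjusted p under 0.05, on either scale, and 683 had an unadjusted p under 0.05, neither member among them. With no row past the threshold, the test says nothing about the stability of SPIB and POU2F2. No paired analysis was possible because the columns carry no replicate numbers. Depth limits SPIB and POU2F2 to a few reads each, and the 12 member records without recovered reads have no measured spread.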

Other observations

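Genes of plasma cells, the antibody-secreting descendants of B cells, were mostly lower in the 4-library mean. A list of plasma cell markers, which shares PRDM1 and IRF4 with the genes described above, had 7 records of 6 genes. Of these records 5 were lower, both of PRDM1 among them, and 2 higher, with a median log2 ratio of -0.62. At least 2-fold lower or higher were 0 of them, beside 10.4% and 23.9% of all rows. JCHAIN, which joins the units of IgM and of dimeric IgA, had means of 1843 in the 4 libraries and 3495 in the 7 libraries. MZB1, a chaperone of antibody assembly, had 148, 130, 16.1 and 5.38 in the 4 libraries against a 7-library mean of 135. The libraries of size factor 1.56 and 1.03 lay close to that mean and the libraries of 0.620 and 0.372 far below it, the reverse of their order for RAG1 and RAG2.

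Markers of dendritic cells, which also present antigen, lay on both sides, with a median log2 ratio of 0.44. Of 9 records, 2 were at least 2-fold lower and 2 at least 2-fold higher, beside 10.4% and 23.9% of all rows. CLEC9A and XCR1, which mark the conventional dendritic cells that present to CD8 T cells, had log2 ratios of 1.83 and 1.09. IRF7, abundant in plasmacytoid dendritic cells, had -1.76. TCF4, of the same list, lay on both sides. Its record of higher counts had means of 98.9 in the 4 libraries and 54.2 in the 7 libraries, a log2 ratio of 0.87. Its record of lower counts had 5.39 and 15.6, a log2 ratio of -1.53. The erythroid list (4 records, median -0.37), the NK cell list (3 records, median -0.68) and the list of genes of all leukocytes (3 records, median 0.05) each rested on few records.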
